A study of Mus musculus with 21 samples.

Results

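The 9 genes described here, Pdx1, Mafa, Nkx6-1, Nkx2-2, Neurod1, Isl1, Foxo1, Pax6 and Rfx6, encode transcription factors that specify pancreatic beta cells or keep them mature. They were listed by symbol, with earlier results of these data known, and are 9 of the 55536 genes in the count tables. All 9 were among the 27229 genes that had at least 10 reads over the 21 samples and were tested, and the lowest group mean of any of them was 2109 normalized counts, that is, counts divided by a size factor for library depth. Islets came from CBA mice, males according to the methods, that were put on a diet at 10 weeks of age. RD mice ate regular chow, HFD mice a high-fat diet, and HFD-O304 mice the same high-fat diet with 0.8 mg of O304 per g of diet. O304 is an oral activator of every AMPK complex, the enzyme that reads the energy state of a cell. The diets lasted 9 weeks by the methods and 10 weeks by the results text, and islets were taken at 20 weeks of age. Each sample was RNA from 150 islets pooled from 5 mice, and each group had 7 samples, so that p-values measure the spread between pools and not between animals. One sample, HFD-O304 replicate 1, carries the HFD diet tag but is titled HFD-O304, and was taken by its title.

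Beta cells read their identity from a small network of such factors, most of which bind the insulin gene enhancer or the genes for glucose sensing. Pdx1, Nkx6-1, Nkx2-2, Pax6 and Rfx6 act from the embryonic endocrine progenitor onwards, Neurod1 and Isl1 act in endocrine cells of every islet lineage, Mafa marks mature beta cells, and Foxo1 carries the response to insulin signalling and nutrient excess into the nucleus. In rodent models of diabetes several of these factors are known to decline in beta cells.

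Between 13809266 and 48922569 read pairs per sample were counted on genes, with 31746115 to 41559322 in RD, 27618749 to 44041180 in HFD and 13809266 to 48922569 in HFD-O304 samples. The shallowest library was HFD-O304 replicate 2. Insulin transcripts dominated the libraries. Levels are given in CPM, counts of a gene per 1e6 counted pairs after edgeR's TMM scaling of library sizes, so they are not exact shares of a library. Ins2 alone stood at 199989 ± 11884 CPM (SD, n = 7) in RD, 212664 ± 15563 CPM in HFD and 181684 ± 12967 CPM in HFD-O304 samples. The summed level of 8 alpha cell markers was 23369 to 29037 CPM in RD, 10788 to 19209 CPM in HFD and 23507 to 31886 CPM in HFD-O304 samples, and that of 5 delta cell markers was 2365 to 3829, 1306 to 2887 and 2335 to 4461 CPM. Most of the alpha sum was Gcg, the glucagon gene, with means of 23481, 11652 and 26987 CPM, and the 8 markers went both ways. In HFD vs RD islets 4 of them were lower and 2 higher, and in HFD-O304 vs HFD islets 5 were higher and 3 lower (edgeR, adjusted p under 0.01), and of the delta cell markers 3 were lower in the first comparison and all 5 higher in the second. Of the alpha, delta, PP and beta cell markers, Pcp4 (1 of the delta cell markers) was the only one at 0 in any sample, and it was at 0 in 1. Acinar cell markers (12 genes) varied more within groups than between them, at 94.9 to 8660 CPM in RD, 19.8 to 6434 in HFD and 12.9 to 2803 in HFD-O304 samples. Replicates 1 to 4 and 5 to 7 of every diet carry identifiers from different ranges of library numbers and are called library sets below. They are balanced over the diets.

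Isl1 and Neurod1 are the 2 factors on which the results below turn, so the stretch before the start of each gene is shown, from RefSeq's GRCm38.p6 promoter table, in which 8 of the 9 factors were found. For Isl1 it is chr13:116309690-116309938 and for Neurod1 chr2:79456786-79456886, both on the minus strand and both outside the annotated span of the gene. Of the 250 bases before the RefSeq start, those nearest to it that lie in annotated exons are left out. These are 1 base for Isl1 and 149 bases for Neurod1, so the Neurod1 stretch does not adjoin that start. Capitals mark the E-box, CANNTG, the site of basic helix-loop-helix factors such as Neurod1 itself.

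Isl1: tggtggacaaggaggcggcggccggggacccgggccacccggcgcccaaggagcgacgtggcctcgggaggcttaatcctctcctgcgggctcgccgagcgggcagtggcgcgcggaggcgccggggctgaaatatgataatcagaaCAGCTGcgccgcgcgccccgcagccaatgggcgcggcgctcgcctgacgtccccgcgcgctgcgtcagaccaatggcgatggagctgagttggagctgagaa

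Neurod1: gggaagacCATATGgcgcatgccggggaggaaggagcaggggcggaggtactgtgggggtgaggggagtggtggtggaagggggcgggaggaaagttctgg

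An E-box stood on either strand in the 250 bases before the RefSeq start in 5 of the 8 factors found (Neurod1, Nkx2-2, Foxo1, Pdx1 and Isl1), against 66.1% of all 27018 promoters. The GC box GGGCGGG was in 3 of the 8 (Neurod1, Nkx2-2 and Foxo1), against 23.6% of all promoters, and the cAMP response element TGACGTCA in 1 (Pax6), against 1.62%. The homeodomain core TAATTA and the FoxO site GTAAACA were in none of the 8, against 4.9% and 3.09% of all promoters. These matches describe letters in a short window, and none of them is evidence of binding.

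Levels were compared between genes as CPM per kilobase of the longest coding transcript. In RD islets Mafa (106.8 ± 9.58, SD, n = 7) and Nkx6-1 (106.7 ± 17.7) stood highest and could not be told apart, since Mafa was above Nkx6-1 in 4 of 7 samples. Pdx1 followed at 76.7 ± 3.14 and Pax6 at 50.4 ± 1.65, each with all 7 samples below those of the factor before it. Neurod1 (36.5 ± 2.12), Isl1 (33.7 ± 1.66), Nkx2-2 (31.8 ± 6.68) and Rfx6 (30.03 ± 1.97) formed a group in which the ranges of neighbours overlapped. Foxo1 was lowest at 7.14 ± 0.604, below every other factor in every sample. In HFD islets Mafa, at 78.9 ± 32.2, stood behind Nkx6-1 (93.6 ± 15.0) and Pdx1 (84.6 ± 6.71), and the ranges of the 3 overlapped. In HFD-O304 islets Nkx6-1 (107.5 ± 11.8) and Mafa (104.9 ± 31.8) again overlapped at the top. The order in the middle depends on the length used, and over all annotated exons Pax6 stood at 19.1 instead of 50.4 in RD islets.

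**Figure D1:**
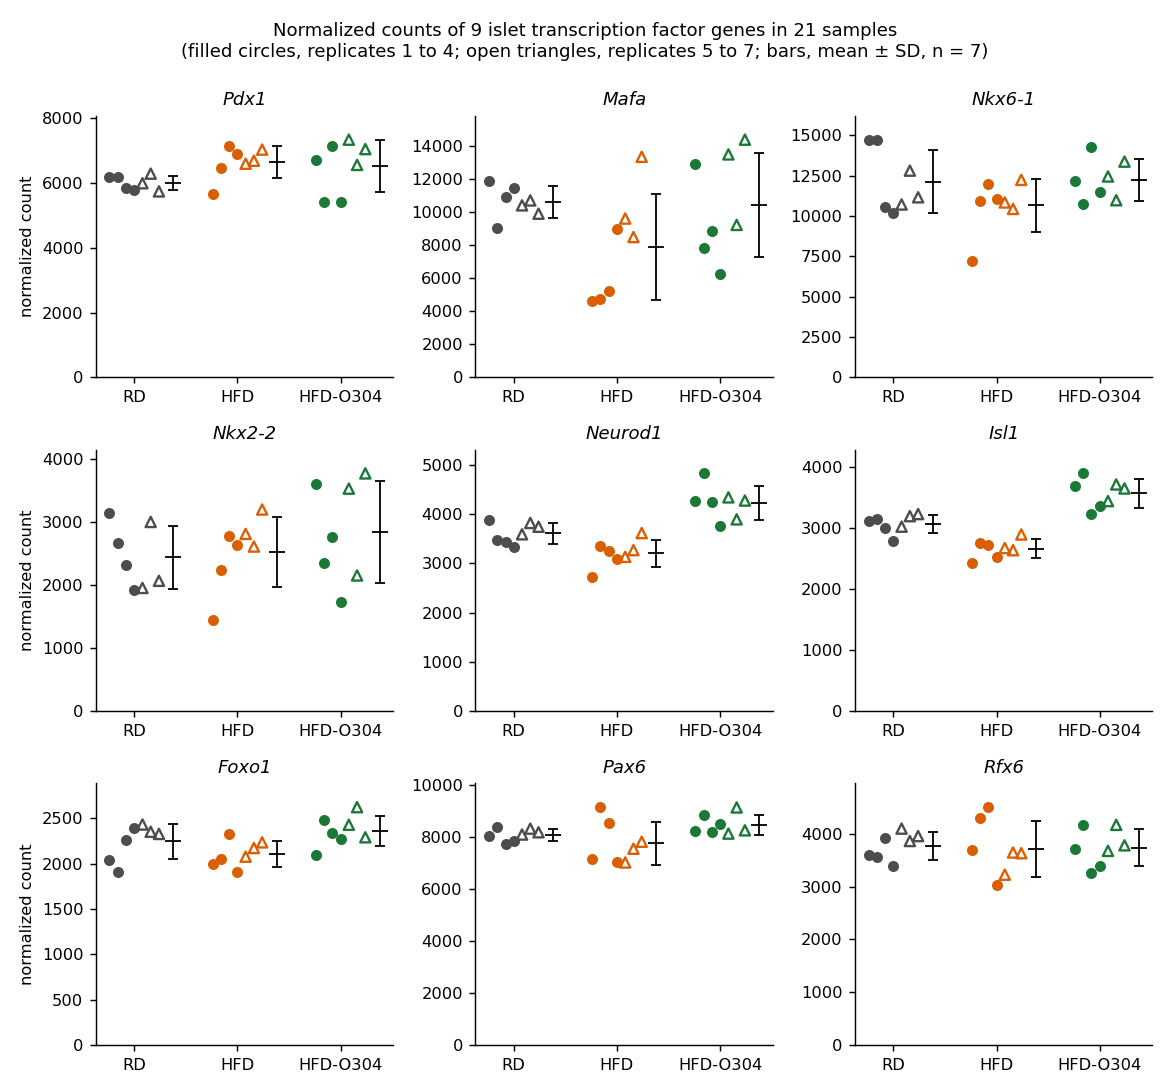
Normalized counts (y axes, linear) of the 9 factors in the 21 samples, by diet group (x axes), 1 panel per factor, with the mean and SD of each group of 7 and with the 2 library sets drawn as different symbols. Isl1 and Neurod1 show HFD-O304 samples above all HFD samples, and Mafa shows HFD samples spread from 4615 to 13329.

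The design asks what the high-fat diet does to these factors, and whether they differ when O304 is in the diet. In HFD vs RD islets none of the 9 passed the test (edgeR, adjusted p under 0.01), while 3.54% of all genes did. Their log2 fold changes were below 0 for 7 of 9, with a median of -0.09 against -0.0044 over all genes, and 3 of the 9 had an unadjusted p under 0.05, as did 5714 of the 27229 genes tested. Comparing HFD-O304 with HFD islets, 2 of the 9 passed, Isl1 and Neurod1, both higher, where 11.9% of all genes passed and 5.08% were higher. Among the 9 factors, 8 had a log2 fold change above 0, with a median of 0.17 against 0.03 over all genes. In HFD-O304 vs RD islets none of the 9 passed, where 1.31% of all genes did, and the median was 0.07 against 0.0078 over all genes, with 2 of the 9 and 3912 of all genes at an unadjusted p under 0.05. By DESeq2, Isl1 passed in HFD vs RD, Isl1 and Neurod1 in HFD-O304 vs RD and the same 2 in HFD-O304 vs HFD islets, where 6.46%, 2.67% and 14.9% of all genes passed. With edgeR at an adjusted p under 0.05 the counts were 1, 2 and 2 of the 9, where 7.89%, 2.88% and 18.9% of all genes passed. The HFD vs RD and HFD-O304 vs HFD comparisons share the HFD samples, so their opposite signs are not independent of each other.

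**Figure D2:**
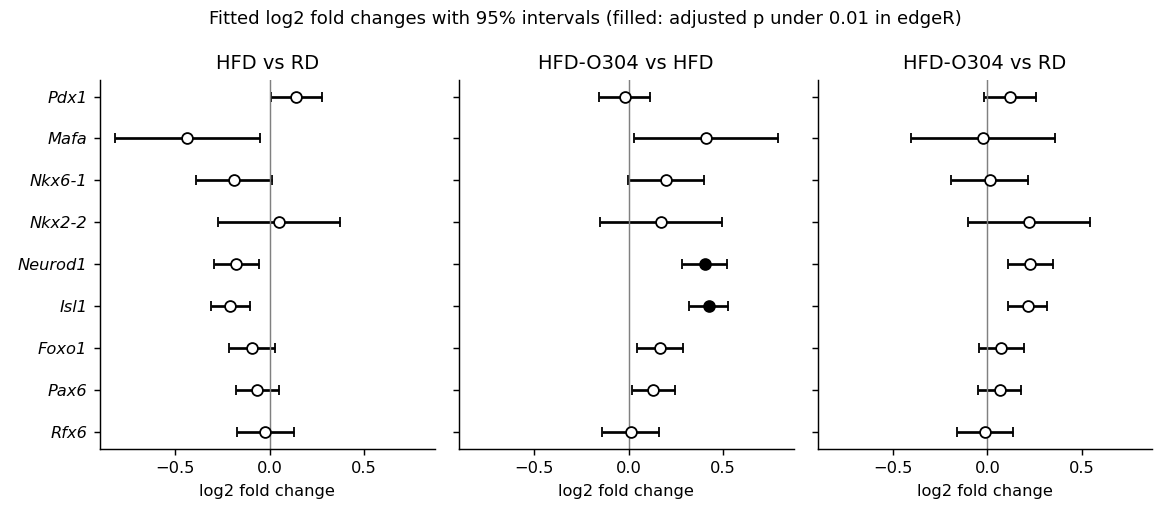
Log2 fold change (x axes) with its normal 95% interval for each of the 9 factors in HFD vs RD, HFD-O304 vs HFD and HFD-O304 vs RD islets, from edgeR, with factors that passed an adjusted p of 0.01 drawn filled. The intervals are narrower than the edgeR test implies. Only Isl1 (0.43) and Neurod1 (0.40) in HFD-O304 vs HFD islets are filled.

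Isl1, a LIM-homeodomain factor that pairs with Ldb1 and is needed for endocrine cell survival and insulin gene activity, lies at chr13:116298281-116309689 on the minus strand (GRCm38, ENSMUSG00000042258). Its lowest, median and highest normalized counts were 2791, 3122 and 3229 in RD, 2424, 2673 and 2894 in HFD, and 3229, 3648 and 3895 in HFD-O304 samples. The HFD and HFD-O304 samples did not overlap, 6 of 7 HFD samples lay below every RD sample, and 6 of 7 HFD-O304 samples lay above every RD sample. Isl1 rose by 0.43 on the log2 scale in HFD-O304 vs HFD islets (SE 0.05, 1.34-fold, edgeR adjusted p = 1.40e-06). Its HFD vs RD difference was -0.21 (SE 0.05, adjusted p = 0.0120) and its HFD-O304 vs RD difference 0.22 (SE 0.05, adjusted p = 0.0201), and both missed the threshold of 0.01. The HFD vs RD difference passed in the fit blocked on replicate number (adjusted p = 0.00622), with library set as a covariate (adjusted p = 0.00586) and with the filterByExpr filter on low counts (adjusted p = 0.00859). With DESeq2 both differences passed, at adjusted p = 0.000997 and 0.00103.

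Neurod1, a basic helix-loop-helix factor that activates the insulin gene through E-boxes, lies at chr2:79452521-79456751 on the minus strand (ENSMUSG00000034701). It had 3338, 3591 and 3872 normalized counts as lowest, median and highest in RD, 2727, 3246 and 3616 in HFD, and 3754, 4262 and 4828 in HFD-O304 samples. As with Isl1, the HFD and HFD-O304 samples did not overlap. The rise in HFD-O304 vs HFD islets was 0.40 on the log2 scale (SE 0.06, 1.32-fold, adjusted p = 1.95e-05). In HFD vs RD islets 5 of 7 HFD samples lay below every RD sample, and the difference was -0.18 (SE 0.06, adjusted p = 0.0757). In HFD-O304 vs RD islets 6 of 7 HFD-O304 samples lay above every RD sample, and the difference was 0.23 (SE 0.06, adjusted p = 0.0374, and 0.00704 by DESeq2). Neurod1 overlaps Cerkl on its own strand and Gm26755 on the other, and read pairs shared with Cerkl are not in its counts.

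Groups that did not overlap in the higher direction made up 2.56% of all genes in HFD-O304 vs HFD islets. For both factors the exact two-sided Wilcoxon p was 0.000583, the smallest that 7 against 7 samples can give. The rise held in each library set. Isl1 differed by 0.43 in replicates 1 to 4 (adjusted p = 0.000718) and by 0.39 in replicates 5 to 7 (adjusted p = 0.000541), and Neurod1 by 0.45 (adjusted p = 0.00127) and 0.32 (adjusted p = 0.00625). Relative to Pax6 in the same sample, Isl1 was 0.29 higher (log2, exact permutation p = 0.000583) and Neurod1 0.27 higher (exact permutation p = 0.00758), and relative to Rfx6 they were 0.41 and 0.39 higher (exact permutation p = 0.000583 and 0.00233). In replicates 1 to 4 and 5 to 7, the Isl1 differences were 0.35 and 0.21 relative to Pax6, and 0.52 and 0.25 relative to Rfx6. Those of Neurod1 were 0.37 and 0.13 relative to Pax6, and 0.55 and 0.17 relative to Rfx6. They were smaller in replicates 5 to 7, and the ratios were not tested within sets. These ratios were chosen after seeing the data, and 48 of them were tested. Adjusted over the 48, the permutation p was 0.00932 for both ratios of Isl1, and 0.0520 and 0.0224 for Neurod1 relative to Pax6 and Rfx6.

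Isl1 and Neurod1 are also made by alpha, delta and PP cells. The hormone genes of alpha and delta cells, Gcg and Sst, rose in HFD-O304 vs HFD islets by 1.21 (adjusted p = 2.55e-08) and 0.88 (adjusted p = 0.000109). Ppy of PP cells differed by 0.32 and did not pass (adjusted p = 0.249). The summed level of Gcg, Sst and Ppy was 26928 to 33670 CPM in RD, 12125 to 23063 CPM in HFD and 30068 to 37534 CPM in HFD-O304 samples, and the HFD and HFD-O304 ranges did not overlap. With that sum as a covariate the HFD-O304 vs HFD differences were 0.37 for Isl1 (adjusted p = 0.901) and 0.27 for Neurod1 (adjusted p = 0.976), in a fit that called 0.00735% of all genes. The sum fully separates the HFD samples from those of both other groups, so the part of these cells in the result cannot be told apart from diet in this design. In bulk islets, fewer cells of a type and less RNA per cell cannot be told apart either. Centred on diet and library set, neither factor tracked the hormone sum from sample to sample, with r = -0.01 for Isl1 (Spearman rho 0.01, permutation p = 0.979 and 0.978) and r = 0.05 for Neurod1 (rho 0.12, permutation p = 0.874 and 0.652). Without the 2 samples farthest from the median of the sum, r was -0.26 and -0.29. Centring takes out the difference between diets, so these values describe spread within groups and do not bear on it.

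Mafa, the basic leucine zipper factor that drives insulin transcription in mature beta cells, lies in a single exon at chr15:75745490-75748228 on the minus strand (ENSMUSG00000047591). Its lowest, median and highest normalized counts were 9034, 10694 and 11862 in RD, 4615, 8481 and 13329 in HFD, and 6221, 9215 and 14366 in HFD-O304 samples. The HFD and HFD-O304 samples spread both above and below the RD range, with 5 of 7 HFD samples below and 1 above every RD sample. The coefficient of variation in RD islets was 8.96%, against 40.7% for HFD and 30.2% for HFD-O304, which was at the 46.2, 99.0 and 98.0 percentile of the 11810 genes whose mean reached 100 normalized counts. Mafa differed by -0.44 in HFD vs RD islets (SE 0.20, adjusted p = 0.192), by 0.41 in HFD-O304 vs HFD islets (SE 0.20, adjusted p = 0.158) and by -0.02 in HFD-O304 vs RD islets (SE 0.20, adjusted p = 0.976), and none of these passed.

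In both high-fat groups the mean Mafa level was higher in replicates 5 to 7 than in 1 to 4. HFD islets had 5895 ± 2058 normalized counts in replicates 1 to 4 (SD, n = 4) and 10470 ± 2538 in replicates 5 to 7 (n = 3), HFD-O304 islets 8959 ± 2855 and 12352 ± 2753, and RD islets 10811 ± 1250 and 10327 ± 405. Replicates 5 to 7 were 0.83 higher than 1 to 4 within HFD (SE 0.21, adjusted p = 0.0354), 0.46 higher within HFD-O304 (adjusted p = 0.632) and differed by -0.07 within RD (adjusted p = 0.945), none of them past the threshold of 0.01. The HFD vs RD difference was -0.88 in replicates 1 to 4 (adjusted p = 0.0151) and 0.02 in replicates 5 to 7 (adjusted p = 0.971). The difference between sets of that contrast was 0.90 (SE 0.30, unadjusted p = 0.00653, adjusted p = 0.668), so it did not pass over all genes.

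Mafa is also unusual in its base composition. Its transcript is 64.95% GC, at the 99.7 percentile of 11805 genes whose median is 49.97%, while Neurod1 is 43.57% and Isl1 45.71%. For each sample a GC slope was fitted, the change of a gene's log2 level, relative to its mean over all samples, per 10 points of GC content, and it ran from -0.172 in HFD replicate 1 to 0.149 in HFD-O304 replicate 7. With this slope as a covariate, chosen after seeing the data, Mafa passed in HFD vs RD (-0.66, adjusted p = 0.00403) and in HFD-O304 vs HFD islets (0.52, adjusted p = 0.00826), where 5.23% and 14.4% of all genes passed, while none of the 9 passed in HFD-O304 vs RD islets, where 1.81% did. Isl1 then also passed in HFD vs RD islets (-0.21, adjusted p = 0.00779).

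**Figure D3:**
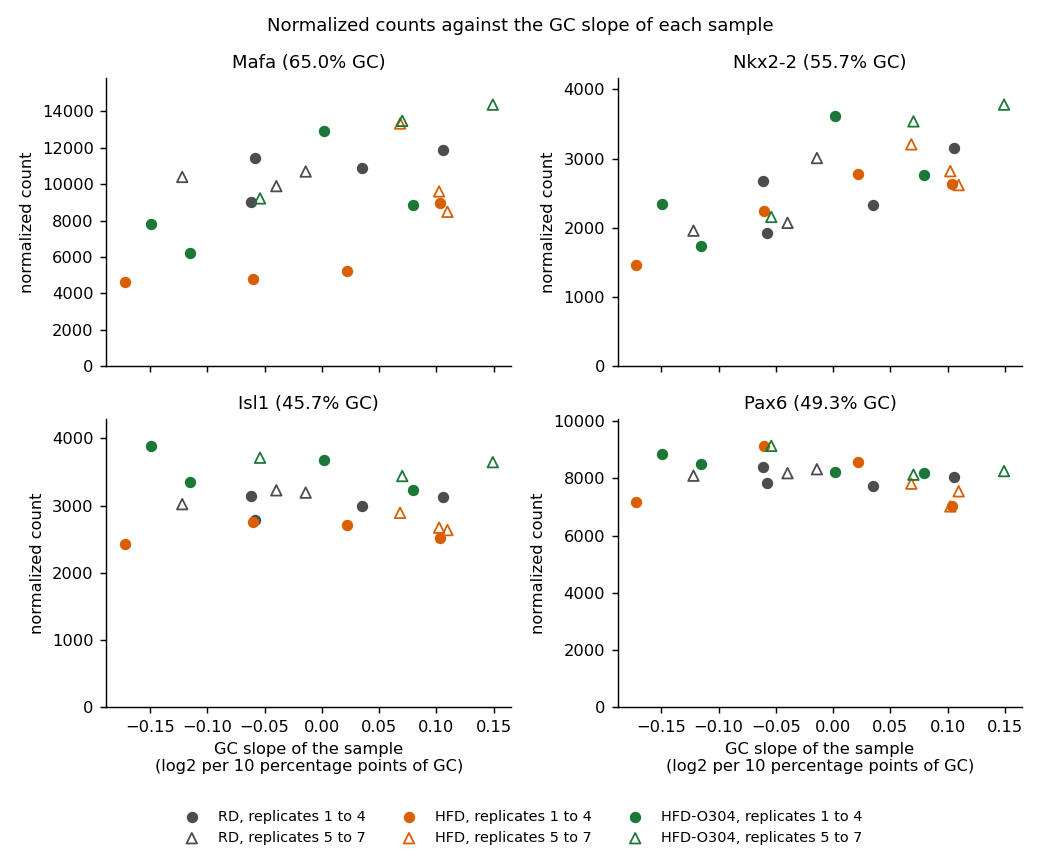
Normalized counts (y axes, linear) of Mafa, Nkx2-2, Isl1 and Pax6 in the 21 samples against the GC slope of each sample (x axes, log2 per 10 points of GC content), coloured by diet, with filled circles for replicates 1 to 4 and open triangles for 5 to 7. Centred on diet and library set, Nkx2-2 and Mafa climb with the slope (r = 0.76 and 0.64) and Isl1 does not (r = -0.01).

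Pdx1, the homeodomain factor without which no pancreas forms and which activates the insulin gene in adult beta cells, lies at chr5:147269959-147275848 on the plus strand (ENSMUSG00000029644). It was among the steadiest genes in RD islets, where its coefficient of variation of 3.72% was at the 3.19 percentile. It had 5738 to 6287 normalized counts in RD (median 5990), 5671 to 7134 in HFD (median 6685) and 5409 to 7335 in HFD-O304 samples (median 6712). In HFD 6 of 7 samples lay above every RD sample and 1 below. The differences were 0.14 in HFD vs RD (SE 0.07, adjusted p = 0.244), 0.12 in HFD-O304 vs RD (adjusted p = 0.457) and -0.02 in HFD-O304 vs HFD islets (adjusted p = 0.892, 95% interval -0.16 to 0.12). In HFD vs RD islets the ratio of Pdx1 to Pax6 differed by 0.21 (log2, exact permutation p = 0.00874, 0.0525 adjusted over the 48 ratios) and that of Pdx1 to Rfx6 by 0.17 (exact permutation p = 0.103, adjusted 0.308).

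Nkx6-1, a homeodomain repressor that keeps beta cells from taking other endocrine fates, lies at chr5:101658139-101664996 on the minus strand (ENSMUSG00000035187). It had 10162 to 14740 normalized counts in RD (median 11165), 7222 to 12245 in HFD (median 10919) and 10779 to 14313 in HFD-O304 samples (median 12179). The lowest HFD value, replicate 1, stood apart from the other 6, which were at 10444 to 12245. The differences were -0.19 in HFD vs RD (SE 0.10, adjusted p = 0.314), 0.20 in HFD-O304 vs HFD (SE 0.10, adjusted p = 0.200) and 0.01 in HFD-O304 vs RD islets (adjusted p = 0.977), none past the threshold.

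Nkx2-2, a homeodomain factor required to form beta cells, lies at chr2:147177546-147194243 on the minus strand (ENSMUSG00000027434). Its normalized counts were 1918 to 3152 in RD (median 2322), 1456 to 3205 in HFD (median 2637) and 1740 to 3779 in HFD-O304 samples (median 2765), wide ranges that overlapped. Its coefficients of variation of 20.7%, 21.9% and 28.3% were at the 93.4, 91.3 and 97.6 percentile. No comparison passed, with differences of 0.05 (adjusted p = 0.913), 0.17 (adjusted p = 0.556) and 0.22 (adjusted p = 0.594) in HFD vs RD, HFD-O304 vs HFD and HFD-O304 vs RD islets. Its gene overlaps Nkx2-2os on the other strand, and counting without strand kept 0.75 of its pairs.

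Pax6, a paired-box factor of all islet endocrine cells, lies at chr2:105668900-105697364 on the plus strand (ENSMUSG00000027168), and Rfx6, a winged-helix factor upstream of endocrine differentiation, at chr10:51677756-51730432 on the plus strand (ENSMUSG00000019900). Pax6 had 7741 to 8392 normalized counts in RD (median 8095), where its coefficient of variation of 2.93% was at the 1.08 percentile, 7021 to 9149 in HFD (median 7549) and 8131 to 9137 in HFD-O304 samples (median 8257). Rfx6 had 3385 to 4103 (median 3868), 3035 to 4511 (median 3650) and 3261 to 4175 (median 3721). Neither gene separated any groups. In HFD-O304 vs HFD islets Pax6 differed by 0.13 (SE 0.06, adjusted p = 0.121) and Rfx6 by 0.01 (SE 0.08, adjusted p = 0.953, 95% interval -0.14 to 0.16). Pax6 differed by -0.07 in HFD vs RD (adjusted p = 0.595) and 0.07 in HFD-O304 vs RD islets (adjusted p = 0.668), and Rfx6 by -0.02 (adjusted p = 0.912) and -0.01 (adjusted p = 0.971).

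Foxo1, the forkhead factor that insulin signalling keeps out of the nucleus, lies at chr3:52268336-52353221 on the plus strand (ENSMUSG00000044167). It had 1910 to 2432 normalized counts in RD (median 2327), 1908 to 2323 in HFD (median 2077) and 2097 to 2623 in HFD-O304 samples (median 2334), with 4 of 7 HFD-O304 samples above every HFD sample. The HFD-O304 vs HFD difference of 0.17 (SE 0.06, adjusted p = 0.0569) missed the threshold, as did -0.09 in HFD vs RD (adjusted p = 0.424) and 0.07 in HFD-O304 vs RD islets (adjusted p = 0.653).

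Between library sets, none of the 9 passed, where 2.82% of all genes did. Mafa came nearest, 0.42 higher in replicates 5 to 7 (SE 0.14, adjusted p = 0.0659), followed by Foxo1 at 0.10 (SE 0.05, adjusted p = 0.195). The other 7 differed by -0.02 (Pax6) to 0.17 (Nkx2-2). No gene passed the test of a difference between sets in a diet contrast (edgeR, 0.0% of all genes, with 1862, 1314 and 1516 genes at an unadjusted p under 0.05 in HFD vs RD, HFD-O304 vs HFD and HFD-O304 vs RD), and of the 9 only Mafa in HFD vs RD had an unadjusted p under 0.05.

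To ask whether the factors move together from sample to sample, log2 CPM was centred on diet group and library set, and the 36 pairs were tested by permutation within those cells. Of the 36 Pearson correlations 27 were above 0, and 7 pairs passed an adjusted p under 0.05. The same counts were not made for other genes, so whether these factors move together more than other genes do was not tested. Pdx1, Nkx6-1 and Nkx2-2 formed a trio, with r = 0.80 for Pdx1 and Nkx2-2 (rho 0.85, permutation p adjusted over the pairs 0.00828 and 0.00252), 0.79 for Pdx1 and Nkx6-1 (rho 0.79, adjusted permutation p = 0.00144 and 0.00252) and 0.79 for Nkx6-1 and Nkx2-2 (rho 0.78, adjusted permutation p = 0.00936 and 0.00792). Nkx2-2 also went with Neurod1 (r = 0.70, rho 0.67, adjusted permutation p = 0.0316 and 0.0250) and Mafa (r = 0.69, rho 0.68, adjusted permutation p = 0.0402 and 0.0232). Isl1 went with Neurod1 (r = 0.69, rho 0.67, adjusted permutation p = 0.0402 and 0.0361) and Pax6 (r = 0.67, rho 0.69, adjusted permutation p = 0.0316 and 0.0250). Without the 2 samples farthest from the median, r of the 7 pairs stayed between 0.51 and 0.82. With the same centring, r was 0.97 for Nkx6-1 and Klhdc3, 0.95 for Nkx2-2 and Eva1b and 0.88 for Pdx1 and Mtcl1. Each of these genes was picked as the closest of 11810 searched, centred on diet, so its r is not a typical value.

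Within library sets, r was 0.83 in both for Pdx1 and Nkx2-2, 0.79 and 0.76 for Pdx1 and Nkx6-1, 0.78 and 0.93 for Nkx6-1 and Nkx2-2, and 0.66 and 0.77 for Mafa and Nkx2-2. It was 0.70 and 0.74 for Nkx2-2 and Neurod1 and 0.67 and 0.68 for Isl1 and Pax6, but 0.78 and 0.31 for Neurod1 and Isl1. Within diets (7 samples each), r of Mafa and Nkx2-2 was near 0 in RD islets, at 0.08, while HFD islets had 0.59 and HFD-O304 islets 0.98. In the same order Neurod1 and Isl1 had 0.71, 0.95 and 0.40, and Isl1 and Pax6 had 0.69, 0.87 and 0.47. In the other 4 pairs r was 0.58 to 0.99 in every diet. Differences in r between diets or sets were not tested. Mafa correlated negatively with Pax6 (r = -0.39), Rfx6 (-0.37) and Foxo1 (-0.28), none of which passed.

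The trio and Mafa are GC-rich, at 55.65% (Pdx1), 58.99% (Nkx6-1), 55.66% (Nkx2-2) and 64.95%, and they were the 4 factors that correlated most with the GC slope. Those correlations were 0.64 to 0.76, with adjusted permutation p over 45 relations of 0.124 to 0.176, so that none passed. Given the slope, r was 0.59 for Pdx1 and Nkx6-1 (adjusted permutation p = 0.0422), 0.58 for Nkx6-1 and Nkx2-2 (0.0422), 0.54 for Pdx1 and Nkx2-2 (0.145) and 0.40 for Mafa and Nkx2-2 (0.307). The pairs of Isl1 with Neurod1 (r = 0.75, adjusted permutation p = 0.0325) and with Pax6 (r = 0.69, adjusted permutation p = 0.0325) passed given the slope too, as did Nkx2-2 with Neurod1 (0.67, 0.0422). Pairs that had not passed before also did so, Nkx6-1 with Pax6 (r = 0.72, adjusted permutation p = 0.0325), Nkx2-2 with Isl1 (0.69, 0.0422) and Neurod1 with Pax6 (0.61, 0.0422). In all, 8 pairs passed given the slope. The part of base composition in these correlations was not tested further.

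**Figure D4:**
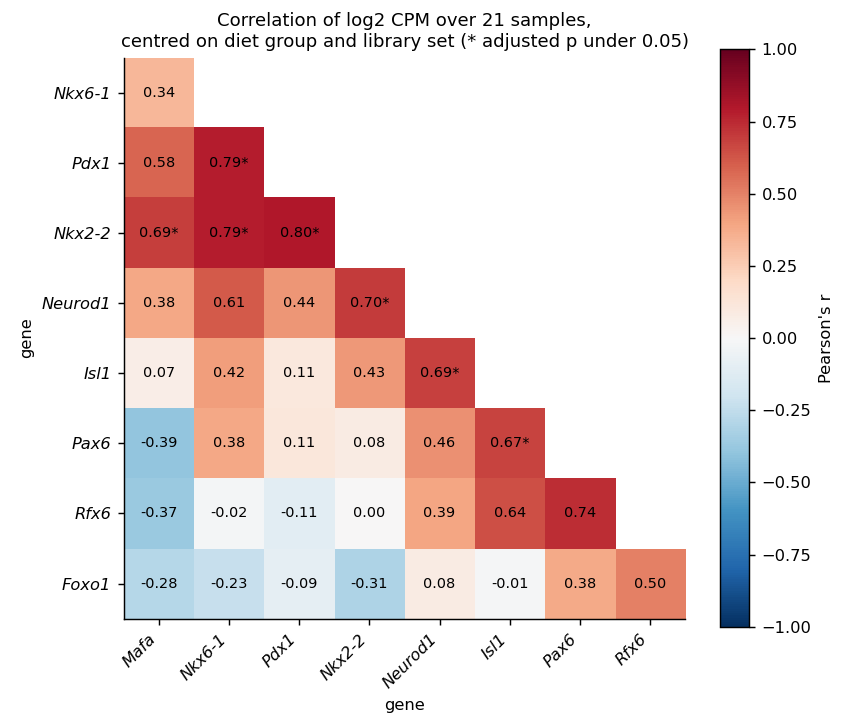
Pearson correlation (colour, -1 to 1) of each of the 36 pairs of factors over 21 samples, log2 CPM centred on diet group and library set, with pairs at an adjusted permutation p under 0.05 marked. Pdx1, Nkx6-1 and Nkx2-2 form a block at 0.79 to 0.80, and Mafa is below 0 with Foxo1, Pax6 and Rfx6.

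Over the 11810 genes searched, the genes whose level followed each factor most closely over the 21 samples, centred on diet, were Mtcl1 (r = 0.90) and Dgcr6 (0.89) for Pdx1, Ccdc184 and Ankrd54 (both 0.92) for Mafa, Klhdc3 (0.97) and Ppp1r37 (0.91) for Nkx6-1, and Eva1b and Zbtb7a (both 0.95) for Nkx2-2. For Neurod1 they were Mtss1 (0.87) and Gm7160 (0.83), for Isl1 Pts (0.92) and Rbbp6 (0.87), for Foxo1 Fam107a (0.85) and Ankrd40 (0.84), for Pax6 Rmnd5a (0.93) and Ubxn7 (0.88), and for Rfx6 Zfp174 and Psd3 (both 0.88). The samples share depth and base composition differences, and these are descriptions with no test.

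Of 20 other islet transcription factors tested (of 21 listed), 6 were higher and 1 lower in HFD-O304 vs HFD islets, where 5.08% of all genes were higher and 6.79% lower, and 3 were lower in HFD vs RD islets, where 2.0% of all genes were higher and 1.54% lower. The median log2 fold changes were 0.28 and -0.08, against 0.03 and -0.0044 over all genes. Gata6, which helps to form the pancreas, rose by 0.65 in HFD-O304 vs HFD islets (SE 0.08, adjusted p = 1.94e-06) and fell by 0.55 in HFD vs RD islets (SE 0.08, adjusted p = 0.000142). Myt1, an endocrine zinc finger factor, had 0.55 (SE 0.10, adjusted p = 0.000164) and -0.42 (SE 0.10, adjusted p = 0.00752). Prox1 fell by 0.34 in HFD vs RD (adjusted p = 0.00221), and in HFD-O304 vs HFD islets Etv1 fell by 0.62 (adjusted p = 6.45e-05).

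Of the 12 partners of these factors and paralogs of Foxo1, 3 were higher in HFD-O304 vs HFD islets, against 5.08% of all genes, and none passed in the other comparisons. Among them were the corepressor Tle3 (0.37, SE 0.10, adjusted p = 0.00622) and Ssbp3, which joins Ldb1 complexes (0.21, SE 0.05, adjusted p = 0.00364). The 6 factors of other endocrine lineages were all higher in HFD-O304 vs HFD islets (median 1.13) and 4 of them lower in HFD vs RD islets (median -0.80), where 5.08% and 1.54% of all genes were called in those directions. Pou3f4 rose by 1.54 in HFD-O304 vs HFD islets (SE 0.19, adjusted p = 1.32e-06) and fell by 0.98 in HFD vs RD islets (SE 0.19, adjusted p = 0.00184). Irx2, a homeobox gene of alpha cells, fell by 0.88 in HFD vs RD islets (SE 0.13, adjusted p = 9.38e-05). The summed level of the 6 factors was 31.8 to 58.5 CPM in HFD and 80.7 to 99.3 CPM in HFD-O304 samples, which did not overlap. Some of the 6, Irx1 and Irx2 among them, are also among the 8 alpha cell markers.

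Of 20 genes known as targets of the 9 factors, 6 were higher and 4 lower in HFD-O304 vs HFD, and 1 was higher and 4 lower in HFD vs RD islets, with medians of 0.05 and -0.12 against 0.03 and -0.0044 over all genes. Over all genes, 5.08% were higher and 6.79% lower in the first comparison and 2.0% and 1.54% in the second. The channel gene Trpm5 rose by 2.40 in HFD-O304 vs HFD islets (SE 0.17, adjusted p = 1.30e-10), by 1.23 in HFD-O304 vs RD islets (adjusted p = 2.52e-05), and fell by 1.18 in HFD vs RD islets (SE 0.16, adjusted p = 5.28e-05). Slc2a2, the glucose transporter of rodent beta cells, rose by 0.74 (SE 0.12, adjusted p = 4.95e-05) in HFD-O304 vs HFD and fell by 0.68 (SE 0.12, adjusted p = 0.000723) in HFD vs RD islets. Glp1r, the incretin receptor, rose by 0.58 in HFD-O304 vs HFD (adjusted p = 1.62e-05) and Pcx, pyruvate carboxylase, fell by 0.53 in HFD vs RD islets (adjusted p = 0.000485). The secreted peptide Iapp went the other way, up 0.41 in HFD vs RD (adjusted p = 0.00384) and down in HFD-O304 vs HFD islets, where it fell by 0.60 (adjusted p = 1.34e-05), as Ins2 fell by 0.23 (adjusted p = 0.00149) and Syt13 by 0.25 (adjusted p = 0.000145). In HFD-O304 vs RD islets the other called target was Ero1lb, which fell by 0.34 (adjusted p = 0.00312).

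**Figure D5:**
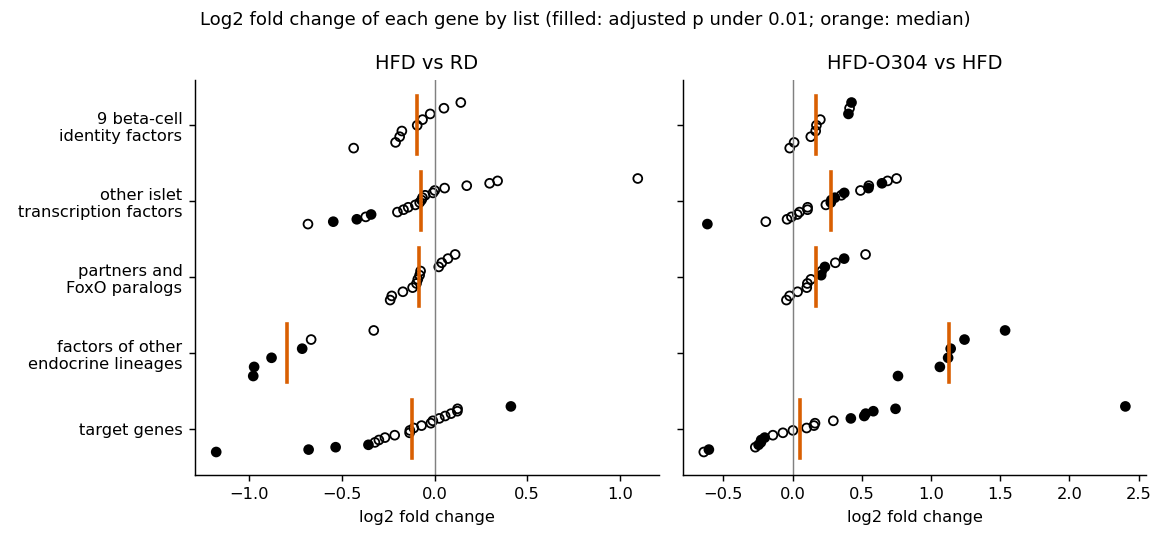
Log2 fold change (x axes) of the 9 factors and of the genes of the 4 related lists (rows) in HFD vs RD and HFD-O304 vs HFD islets, 1 point per gene, filled where it passed an adjusted p of 0.01, with an orange line at each median. In HFD-O304 vs HFD islets the median of the 6 factors of other endocrine lineages lies farthest to the right of the 5 medians, at 1.13 against 0.17 for the 9 factors, while the gene farthest to the right is the target Trpm5 at 2.40.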

How the data were processed

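RNA-seq covered islets of 7 RD, 7 HFD and 7 HFD-O304 samples. The authors ran FastQC, aligned to GRCm38 with STAR, and deposited raw gene counts of read pairs. Multimapping pairs and those on overlapping genes were left out by STAR. STAR's column for the strand with the larger count, 28.8 to 36.3 times the other, was used. Per-gene precision is set by the 7 samples per group, since the lowest group mean of a factor was 2109 normalized counts.

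The 27229 genes holding 10 or more reads in total were tested with edgeR 4.0.16 (TMM, quasi-likelihood, all samples in 1 fit) in R 4.3.3, Benjamini-Hochberg over all genes, adjusted p under 0.01, after the study's threshold. DESeq2 1.42.0 was an alternative, and gave the size factors of the normalized counts. CPM uses the TMM-scaled library sizes and has prior count 2 on the log2 scale. Intervals of differences are 95% and normal, and so narrower than the quasi-likelihood test implies. That of Pdx1 in HFD vs RD islets (0.0051 to 0.28) left out 0 at an unadjusted p of 0.0521 (edgeR). Correlations used 100000 permutations. The named genes were the 9 factors, up to 3 called genes per direction of each list and the 2 most alike genes of each factor, some of which are not reported here. The members and lists were chosen with earlier results of these data known. Alternatives covered the test, normalization, filter, strand, samples, replicate block, library set, marker covariates and left-out samples, and the GC slope and ratios were added after seeing the data. The fit was tested on simulated data.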

Additional observations from a re-analysis of the deposited data

Results flagged for a closer look

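Of 27 sets of 7 samples (9 factors in 3 groups), 1 held a sample far from the others. Nkx6-1 had 7222 normalized counts in HFD replicate 1, where the other 6 HFD samples had 10444 to 12245, and its gap to the nearest of them was 0.641 of the whole range, above the critical value of Dixon's test. Chance flags about 1 in 20 such sets. The same sample had the lowest GC slope of the 21 (-0.172) and the fewest read pairs of the HFD group (27618749), and their part in the value was not tested.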

How the results depend on the processing

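Throughout this section the exact Wilcoxon and ratio alternatives were judged at an unadjusted p under 0.01. With the permutation p adjusted over the 48 ratios, only Isl1 passed 0.01. It did so relative to Pax6 and to Rfx6 in HFD-O304 vs HFD and relative to Rfx6 in HFD-O304 vs RD islets. In HFD-O304 vs HFD islets, Isl1 and Neurod1 each stayed past the threshold so judged in 38 of 39 alternatives, of which 21 were fits without 1 sample. The count of called factors was 2 in each of those 21. It was 0 with the Gcg, Sst and Ppy covariate. With the GC slope covariate, with or without the block, it was 3, since Mafa was added. In HFD vs RD islets, where the count was 0, Isl1 alone (1 factor) passed with DESeq2, filterByExpr, the library set covariate, a threshold of 0.05 and the exact Wilcoxon test, and Pdx1 alone (1) relative to Pax6. Isl1 and Mafa (2) passed with the GC slope covariate, with or without the block. Fits without 1 sample gave 0 to 1, and Isl1 passed without RD replicate 4 (1) and without HFD replicate 7 (1). In HFD-O304 vs RD islets, where the count was 0, Neurod1 and Isl1 (2) passed with DESeq2, a threshold of 0.05, the exact Wilcoxon test and relative to Rfx6, and Isl1 (1) with the GC slope and replicate block and relative to Pax6. Fits without 1 sample gave 0 to 1, with 1 without HFD replicate 1. With no filter beyond 1 count, 1 factor (Mafa) passed between library sets and 2 differences between sets (Mafa, HFD vs RD and HFD-O304 vs RD) passed, and fits without 1 sample gave 0 for both. Of the correlations, 4 pairs passed with unstranded counts and 3 to 7 without 1 sample, with 3 without RD replicate 1 or HFD replicate 7 and 4 without HFD-O304 replicate 4 or 6. More pairs passed by Spearman's rho (9), without centring (10), given the acinar and the Gcg, Sst and Ppy levels (10) and given the GC slope (8). By rho, Pax6 with Rfx6 and Isl1 with Rfx6 were added (adjusted permutation p = 0.0431 for each).

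The replicate numbers are shared by the groups. With the number as a replicate block, 1 (Isl1), 0 and 2 factors passed in HFD vs RD, HFD-O304 vs RD and HFD-O304 vs HFD islets, where 5.79%, 1.99% and 13.8% of all genes did. Without the block 3.54%, 1.31% and 11.9% of all genes passed. Deviations of same-numbered samples from their diet means correlated at 0.164, 0.217 and 0.107 on average, and above 0.1 in 5, 6 and 4 of 7 pairs. The lowest correlations were -0.391, -0.127 and -0.232. Same-numbered samples also share a library set, so these averages do not separate number from set. The best match was the sample's own number in 5, 3 and 2 of 7 samples. Some same-numbered samples thus resembled each other and others did not, and the sample titles do not say that the numbers are pairs. The main fit left the number out, and what the numbers share was not tested.

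Of 1047 alternatives for single factors, 967 kept their direction and side of the threshold, 26 moved past it, 2 moved below it and 52 changed sign, none of the last past the threshold, and the cause was not tested. In HFD vs RD islets these were Pdx1 (-0.0084) and Mafa (0.033) and Nkx2-2 (-0.047) with the hormone covariate, Mafa in replicates 5 to 7 (0.020), Nkx2-2 with unstranded counts (-0.0037), in replicates 1 to 4 (-0.14) and with the GC slope without (-0.11) and with the block (-0.12), and Rfx6 in replicates 1 to 4 (0.10), with the GC slope and block (0.0041) and relative to Pax6 (0.038). In HFD-O304 vs RD islets they were Mafa in replicates 5 to 7 (0.25), Nkx6-1 in replicates 1 to 4 (-0.050), with the acinar covariate (-0.0017), the GC slope without and with the block (both -0.019) and relative to Pax6 (-0.045), and Rfx6 with no filter (0.00056), the hormone covariate (0.0072) and the GC slope and block (0.0013). In HFD-O304 vs HFD islets they were Pdx1 in replicates 5 to 7 (0.040), with the hormone covariate (0.16) and the GC slope (0.0024), Mafa with the hormone covariate (-0.15), and Rfx6 in replicates 1 to 4 (-0.10), with the GC slope without (-0.0021) and with the block (-0.0027) and relative to Pax6 (-0.12). Without 1 sample, Mafa ranged from -0.12 to 0.069 and Nkx6-1 from -0.032 to 0.081 in HFD-O304 vs RD, Nkx2-2 from -0.014 to 0.16 in HFD vs RD, Pdx1 from -0.055 to 0.023 in HFD-O304 vs HFD, and Rfx6 from -0.078 to 0.024 in HFD vs RD, -0.039 to 0.065 in HFD-O304 vs HFD and -0.041 to 0.016 in HFD-O304 vs RD islets.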

Other observations

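HFD replicate 1 had the lowest HFD value for 6 of the 9 factors, Pdx1 (5671), Mafa (4615), Nkx6-1 (7222), Nkx2-2 (1456), Neurod1 (2727) and Isl1 (2424), in normalized counts. RD replicate 4 had the lowest RD value for 5 of the 9, and HFD-O304 replicate 4 the lowest HFD-O304 value for 4. Proliferation genes (8 genes) summed to 36.8 to 47.3 CPM in RD, 39.4 to 159 CPM in HFD and 25.6 to 36.1 CPM in HFD-O304 samples.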
